A study of Homo sapiens with 3 samples.

Results

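Expression of 33 genes of cholesterol and fatty acid synthesis was compared between untreated PANC-1 cells and cells given cantharidin or okadaic acid. The genes were a list of named enzymes, their SREBP regulators and a sterol carrier, and they were found on the arrays by matching the RefSeq accession of each probe to a gene symbol. All 33 had a probe, out of 19699 genes named in this way, and together they had 40 of the 34041 probes with a value on every array. The list does not hold every gene of these pathways.

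PANC-1 is a human pancreatic ductal carcinoma cell line. Gene expression was measured on 3 one-colour Agilent arrays, 1 for cells with no treatment, 1 for cells given cantharidin and 1 for cells given okadaic acid, both of which inhibit the protein phosphatase PP2A. Each sample's own label gives a dose of 20 µM for its agent, although the treatment description can also be read as giving that dose for cantharidin alone, and the exposure was 24 h in a single cell line grown in serum-containing medium. The study used the arrays to look for changes in genes of angiogenesis, and its own threshold of 1.5-fold, in either direction, is used here for every count. Each group was 1 array, so no difference below has a replicate check, an error between cultures or a p-value.

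Cells make cholesterol and fatty acids from cytosolic acetyl-CoA. Cholesterol arises through mevalonate, isoprenoid diphosphates, squalene and lanosterol, whereas fatty acids are built by carboxylation and repeated condensation, then desaturated and elongated. Transcription of most of these enzymes is driven by SREBP factors, which SCAP escorts from the endoplasmic reticulum to the Golgi for cleavage when sterols are low, and which the INSIG proteins hold back when sterols are plentiful.

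Values are processed spot intensities as the scanner software gave them, on a linear scale, and differences are log2 values after each array's 75th percentile had been subtracted. That percentile was 784 in control, 713 in cantharidin and 936 in okadaic acid, so an equal intensity on 2 arrays is not an equal scaled level. A fold is always that scaled difference. Intensities of different genes come from different probes and are not compared. No transcript spot was saturated. Between the repeated spots of one probe the median SD was 0.0602, 0.0903 and 0.0681 on the log2 scale (790 probes in control, 807 in cantharidin and 764 in okadaic acid), which gives a difference between arrays an SD of 0.108 for cantharidin and 0.0909 for okadaic acid against control. These SDs cover spot error only. All 5 epithelial and ductal markers were well above background on every array, with summed intensities of 146317, 164573 and 269030. That sum, of unscaled intensities, followed KRT18 (70664, 127869 and 193320). KRT19 was also higher on both treated arrays (2503, 3094 and 7746). KRT7 (19966, 12276 and 14239) and EPCAM (1286, 342 and 698) were lower on both, and KRT8 (51899, 20992 and 53027) was lower after cantharidin. Hepatocyte markers were not well above background on any array (0 of 2), but all 3 leukocyte markers (summed 3166, 2325 and 11839, of which CD14 alone gave 2535, 1838 and 11044), both endocrine markers (992, 1135 and 1024), 2 of 3 endothelial markers (summed over all 3, 2261, 1315 and 1589) and 2 of 3 acinar markers (summed over all 3, 238, 342 and 323) were well above it on all arrays. Of the 2 adipocyte markers, 1 was above background in control and okadaic acid and both were in cantharidin (summed 110.3, 225 and 228). The part of these signals in the differences below was not tested.

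Most of the genes gave a lower signal after cantharidin. The list was chosen with earlier results of these data known, so the shares below describe it and are not independent support. Of the 33, 23 (69.7%) were at least 1.5-fold lower, 3 (9.09%) were at least 1.5-fold higher and 7 were neither, with a median log2 difference of -0.96. Over all 16644 genes compared, 34.1% were lower and 27.5% higher, with a median of -0.16. After okadaic acid, 15 of the 33 (45.5%) were lower, 5 (15.2%) higher and 13 neither, with a median of -0.53, against 28.8% lower and 28.1% higher among all 16166 genes and a median of 0.01. Without any scaling between arrays the okadaic acid split was 12 lower and 7 higher among the members and 3615 lower and 5910 higher among all genes, beside 4656 and 4545 with scaling. A lower signal from a culture can come from fewer cells that express a gene or from less RNA per cell, and these cannot be told apart.

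**Figure D1:**
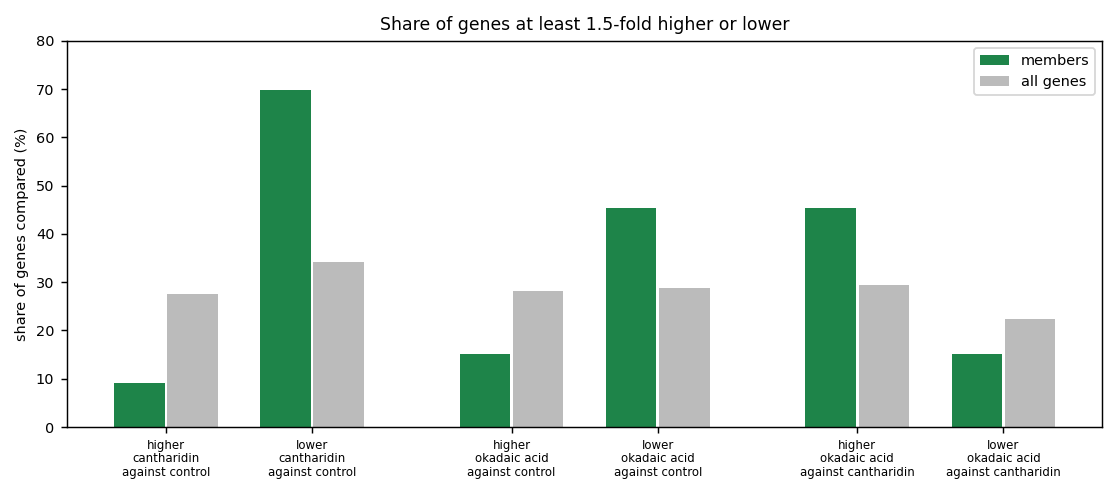
Percent of genes at least 1.5-fold higher or lower in each comparison, for the 33 members (green) and for all genes compared (grey). The members' lower bars stand at 69.7% for cantharidin and 45.5% for okadaic acid, above the grey bars at 34.1% and 28.8%. The members were chosen with earlier results of these data known.

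The comparisons of cantharidin and okadaic acid with control share the control array, so part of any overlap between them can come from that array. Over all genes 34.1% were lower and 27.5% higher after cantharidin, and 28.8% and 28.1% after okadaic acid. The share past the threshold under both agents was not counted over all genes. The overlap below is therefore a list and not a result about the members. Side by side, 13 genes were lower under both agents (PMVK, FDPS, FDFT1, LSS, MSMO1, HSD17B7, SC5D, ACACA, FASN, SCD, FADS2, SREBF1 and SCAP). These calls rest on the brightest probe of a gene, and for LSS, ACACA and SREBF1 a dimmer probe gave another direction under at least 1 agent. Another 9 were lower under cantharidin and past the threshold in neither direction under okadaic acid (ACSS2, ACAT2, IDI1, TM7SF2, EBP, FADS1, ELOVL6, INSIG1 and INSIG2). MVK and STARD4 were higher under both. SQLE was the 1 gene past the threshold in opposite directions, lower under cantharidin and higher under okadaic acid. HMGCS1 and NSDHL were higher, and AACS and SREBF2 lower, under okadaic acid alone, and MVD was higher under cantharidin alone. ACLY, CYP51A1 and DHCR7 passed the threshold under neither agent.

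**Figure D2:**
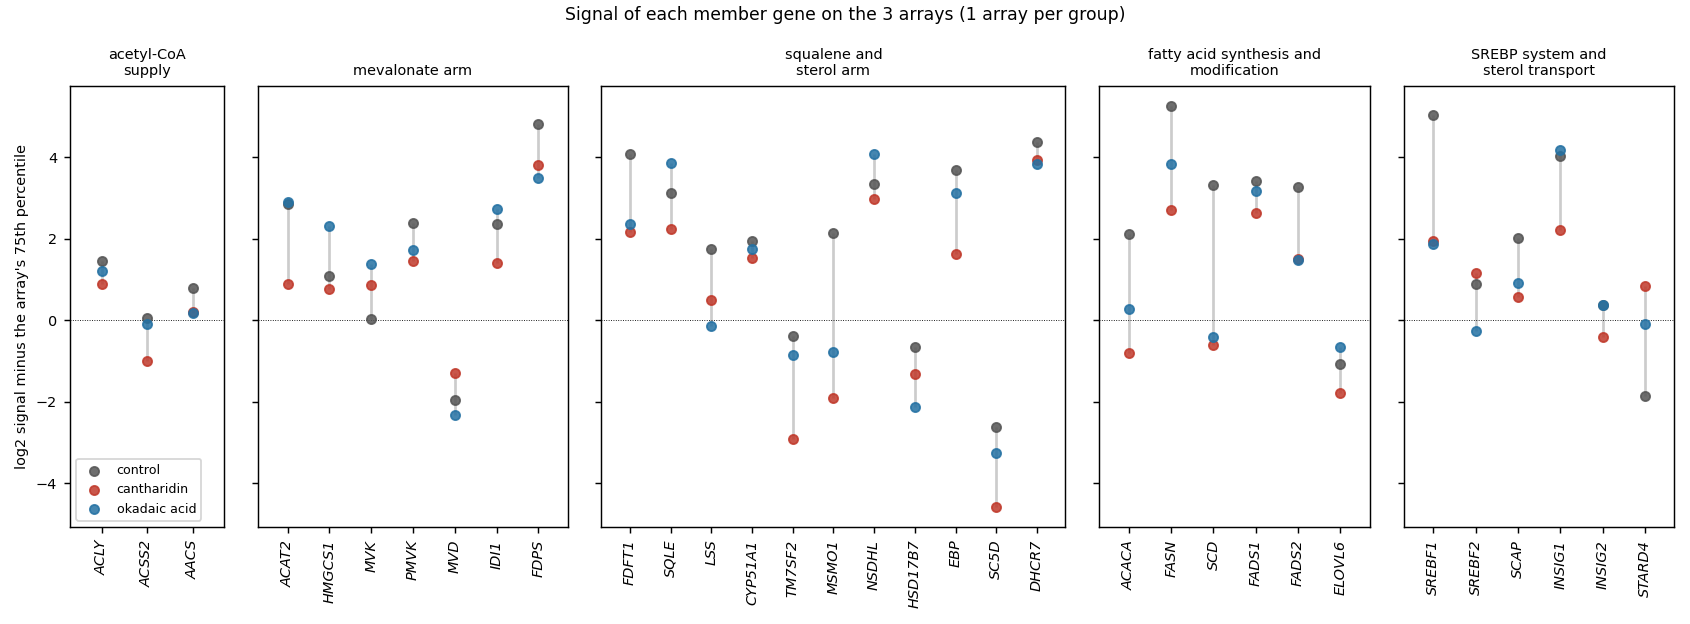
Scaled log2 signal (log2 minus the array's 75th percentile, dotted line at 0) of the representative probe of each of the 33 genes on the control (grey), cantharidin (red) and okadaic acid (blue) arrays, 1 array per group. MSMO1, SCD, FADS2 and SREBF1 have both treated points far under the control point, while for ACAT2, EBP and INSIG1 the cantharidin point alone lies far from control.

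Promoter sequence was read for the genes with a RefSeq window (GRCh38.p14, 250 bases before to 50 after a transcription start), which 29 of the 33 genes had, with 40 windows in all. Windows for ACAT2, FDFT1, SQLE and FASN were not used here. The motifs searched on both strands were the sterol regulatory element TCACNCCAC to which SREBP factors bind, the CCAAT box CCAAT of the factor NF-Y, the GC box GGGCGG of SP1 and the E-box CACGTG, and none of these contains another. A CCAAT box was found in 25 of 40 member windows (62.5%), against 34.6% of all 35116 windows of that length, and a GC box in 36 of 40 (90%), against 45.0%. An E-box was found in 5 of 40 (12.5%, against 7.26%) and the exact sterol element in 1 of 40 (2.5%, against 1.13%), that of SREBF2. The member windows were richer in G and C, with a median of 68.2% against 58.7% over all windows. By gene, 21 of 29 members (72.4%) held a CCAAT box, against 39.7% of all 27305 genes with a window. That wider set was not limited to genes measured on the arrays. Of the member genes with a window, a CCAAT box was present in 13 of 19 lower, 3 of 3 higher and 5 of 7 other genes by their cantharidin call, and in 9 of 13, 4 of 4 and 8 of 12 by their okadaic acid call. A match is a run of letters and not a bound site, and where none was found only those letters were missing from the window. The 250 bases before the start are given for MSMO1 and SCD, which had the lowest differences from control under cantharidin, MVK and STARD4, which were higher under both agents, HMGCS1, which had the highest okadaic acid difference of the genes not past the threshold under cantharidin, and SREBF2, which holds the sterol element. They are written 5′ to 3′ along the gene's strand, at chr4:165327419-165327668 (plus) for MSMO1, chr10:100346983-100347232 (plus) for SCD, chr12:109573544-109573793 (plus) for MVK, chr5:111512536-111512785 (minus) for STARD4, chr5:43313413-43313662 (minus) for HMGCS1 and chr22:41832855-41833104 (plus) for SREBF2. Capitals mark each CCAAT box, written CCAAT or on the other strand ATTGG, and the sterol element. MVK held 5 boxes, MSMO1 4, SCD, STARD4 and HMGCS1 2 each, and SREBF2 1.
MSMO1: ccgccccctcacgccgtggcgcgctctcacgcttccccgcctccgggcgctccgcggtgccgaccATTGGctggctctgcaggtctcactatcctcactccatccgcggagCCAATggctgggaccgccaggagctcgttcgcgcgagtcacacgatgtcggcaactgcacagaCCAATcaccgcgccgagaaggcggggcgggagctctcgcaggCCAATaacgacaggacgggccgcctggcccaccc
SCD: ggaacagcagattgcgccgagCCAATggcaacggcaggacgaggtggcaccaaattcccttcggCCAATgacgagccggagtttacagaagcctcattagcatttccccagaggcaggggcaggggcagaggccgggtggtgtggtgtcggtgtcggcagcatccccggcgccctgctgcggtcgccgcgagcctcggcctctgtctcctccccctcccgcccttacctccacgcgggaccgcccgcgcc
MVK: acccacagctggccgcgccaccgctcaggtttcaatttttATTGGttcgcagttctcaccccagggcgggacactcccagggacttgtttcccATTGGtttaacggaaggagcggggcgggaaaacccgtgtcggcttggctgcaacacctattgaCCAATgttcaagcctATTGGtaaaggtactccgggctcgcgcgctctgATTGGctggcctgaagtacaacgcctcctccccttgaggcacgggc
STARD4: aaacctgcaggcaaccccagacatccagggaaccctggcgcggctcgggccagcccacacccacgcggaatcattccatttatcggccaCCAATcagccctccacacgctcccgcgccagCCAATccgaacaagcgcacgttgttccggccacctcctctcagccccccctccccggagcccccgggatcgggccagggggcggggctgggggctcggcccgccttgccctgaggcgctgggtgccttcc
HMGCS1: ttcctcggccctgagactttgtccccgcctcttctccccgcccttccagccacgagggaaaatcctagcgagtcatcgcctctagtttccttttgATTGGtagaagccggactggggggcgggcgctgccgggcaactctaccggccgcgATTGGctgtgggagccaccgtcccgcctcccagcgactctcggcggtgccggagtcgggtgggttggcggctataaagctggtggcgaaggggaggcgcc
SREBF2: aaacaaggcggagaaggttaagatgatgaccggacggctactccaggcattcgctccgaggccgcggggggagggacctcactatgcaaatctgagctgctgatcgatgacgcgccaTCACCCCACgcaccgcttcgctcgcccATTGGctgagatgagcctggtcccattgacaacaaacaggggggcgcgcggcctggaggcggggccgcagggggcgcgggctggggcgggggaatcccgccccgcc

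Counts by role, here and below, come from small groups of genes. Beside them, 34.1% of all genes were lower and 27.5% higher after cantharidin, and 28.8% and 28.1% after okadaic acid. Of the 3 genes that supply acetyl-CoA units, 1 was lower under each agent and none was higher. ACLY, which splits citrate to acetyl-CoA, read 2158, 1314 and 2155, in the order control, cantharidin, okadaic acid. Its log2 differences of -0.58 and -0.26 were both under 1.5-fold. ACSS2, which makes acetyl-CoA from acetate, read 810.4, 354 and 875 in the same order. It was 2.08-fold lower after cantharidin (-1.06) and near control after okadaic acid (-0.14). AACS, which activates acetoacetate, read 1348, 826 and 1068. Its differences of -0.57 and -0.59 lie just outside and just inside the threshold, and the treated arrays differed from each other by -0.02. A further AACS probe gave -0.97 and -1.05, lower on both treated arrays.

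In the mevalonate arm, 4 of 7 genes were lower and 2 higher after cantharidin (median -0.94), and 2 were lower and 2 higher after okadaic acid (median 0.04, or -0.08 with arrays scaled to their median). ACAT2, the cytosolic thiolase that joins acetyl-CoA units, read 5687, 1323 and 6986 in control, cantharidin and okadaic acid. The cantharidin array alone was low, 3.91-fold under control (-1.97), and okadaic acid differed by 0.04. HMGCS1, the synthase that makes HMG-CoA, read 1658, 1216 and 4664. Here the okadaic acid array stood out on the high side, 2.36-fold over control (1.24), with cantharidin at -0.31. MVK, mevalonate kinase, read 800.3, 1306 and 2434, the lowest value being that of control. It was 1.80-fold higher after cantharidin (0.85) and 2.55-fold higher after okadaic acid (1.35).

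PMVK, which adds the next phosphate, ran the other way from MVK with readings of 4107, 1941 and 3091. It was 1.92-fold lower after cantharidin and 1.59-fold lower after okadaic acid (-0.94 and -0.67). MVD, the decarboxylase that yields isopentenyl diphosphate, read 203, 289.9 and 188. The cantharidin array was the high one, by 1.57-fold (0.65), and okadaic acid was at -0.37. IDI1, the isomerase of isopentenyl diphosphate, read 4043, 1885 and 6215. Only its cantharidin array passed the threshold, 1.95-fold lower (-0.96, with okadaic acid at 0.37). FDPS, which makes farnesyl diphosphate, gave 22218, 10009 and 10592. Both treated arrays were low, by 2.02-fold after cantharidin and 2.50-fold after okadaic acid (-1.01 and -1.32).

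By their brightest probes, 8 of the 11 genes of the squalene and sterol arm were lower after cantharidin and 3 neither (median -1.25). LSS is 1 of these 8, and its probes disagreed. After okadaic acid 5 were lower, 2 higher and 4 neither (median -0.55). FDFT1, squalene synthase, read 13148, 3186 and 4795 in control, cantharidin and okadaic acid. Both treated values were low, 3.75-fold and 3.27-fold below control (-1.91 and -1.71). SQLE, squalene epoxidase, read 6848, 3380.4 and 13483. Control lay between the treated arrays, with cantharidin 1.84-fold lower (-0.88) and okadaic acid 1.65-fold higher (0.72). LSS, which cyclises the epoxide to lanosterol, read 2631, 1004 and 851 at its brighter probe, 2.38-fold and 3.69-fold below control (-1.25 and -1.88). Its dimmer probe read 125, 280 and 262 and went the opposite way, at 1.30 and 0.81, so no direction can be given for LSS as a gene.

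Among the enzymes that turn lanosterol into cholesterol, MSMO1, a methylsterol oxidase, had the lowest cantharidin difference of all 33 genes. It read 3433, 191 and 542, which is 16.3-fold lower after cantharidin (-4.03) and 7.56-fold lower after okadaic acid (-2.92). This probe was printed in 10 spots per array, and the spots ranged from 3240 to 3658 in control (10 spots), 165 to 213 in cantharidin (9 spots without an outlier flag) and 516 to 572 in okadaic acid (10 spots). The 3 ranges were far apart, and the SD between spots was 0.049, 0.11 and 0.054 on the log2 scale. With normexp background correction the cantharidin difference of MSMO1 was -3.48. TM7SF2, a sterol reductase, also had 10 spots and read 602, 95.5 and 519. Cantharidin was 5.73-fold lower (-2.52), with spots from 89.5 to 104 (9 spots) against 572 to 628 in control, and okadaic acid, at -0.47, ran from 487 to 551. With normexp background correction the cantharidin difference of TM7SF2 was -1.82. EBP, a sterol isomerase, had the same order of arrays with 10044, 2183 and 8192. Its cantharidin value was 4.18-fold lower (-2.06) and its okadaic acid difference of -0.55 stopped short of the threshold.

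SC5D, a sterol desaturase, was dim, with readings of 127, 29.9 and 98.9. It was 3.87-fold lower after cantharidin (-1.95), where its signal was 1.36 times the lowest signal of any probe well above background on that array, and 1.53-fold lower after okadaic acid (-0.62). With normexp background correction its cantharidin difference was -0.87. That correction adds an offset of 50, above the 29.9 of SC5D in cantharidin, so it makes differences of dim probes smaller by design. HSD17B7, a sterol ketone reductase, read 496, 288 and 215 and was 1.56-fold lower after cantharidin and 2.76-fold lower after okadaic acid (-0.64 and -1.47). Its 3 probes lay between -0.80 and -0.50 for cantharidin and between -1.73 and -1.47 for okadaic acid, all on the low side. The genome also carries a pseudogene copy of HSD17B7, and whether it contributes to these probes was not tested. A dimmer HSD17B7 probe had 10 spots per array. They ran from 334 to 405 in control, 174.0 to 207.9 in cantharidin and 108.8 to 173.6 in okadaic acid. The SD between spots was 0.087, 0.081 and 0.20 on the log2 scale, widest in okadaic acid. NSDHL, a sterol dehydrogenase, read 7936, 5616 and 15874, and okadaic acid alone was past the threshold, 1.68-fold higher (0.74, with cantharidin at -0.36). CYP51A1, the demethylase of lanosterol, read 3005, 2037 and 3169 and DHCR7, which makes cholesterol in the last step, read 16183, 10942 and 13415. Neither passed the threshold, with differences of -0.42 and -0.18 for CYP51A1 and -0.43 and -0.53 for DHCR7.

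**Figure D3:**
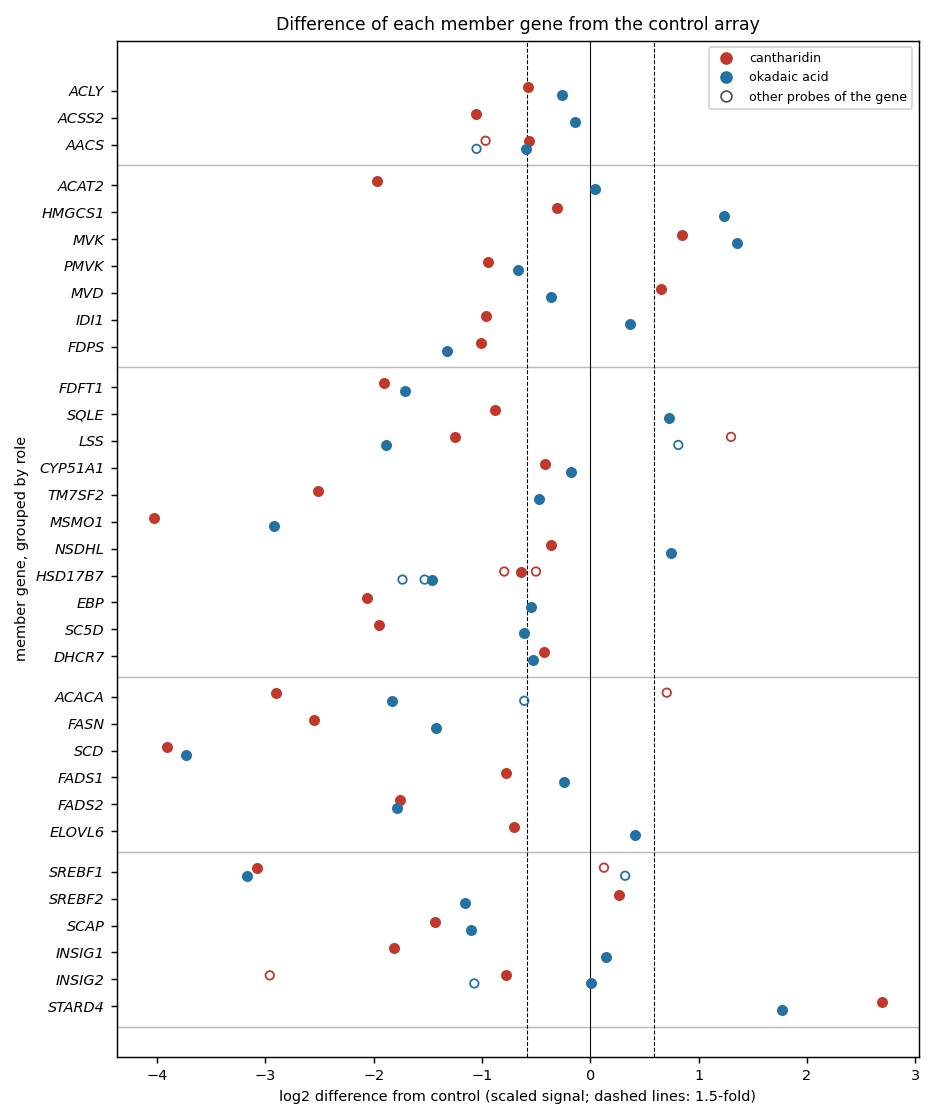
Log2 difference of each gene from control after cantharidin (red) and okadaic acid (blue), with other probes of the same gene as open circles and dashed lines at 1.5-fold. MSMO1 and SCD lie farthest to the left and STARD4 farthest to the right. The open circles of LSS, ACACA, SREBF1 and INSIG2 lie away from their filled ones.

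The 6 genes of fatty acid synthesis and modification were all lower after cantharidin (median -2.16), and 4 were lower after okadaic acid (median -1.61), with none higher under either agent, each gene taken at its brightest probe. The dimmer probe of ACACA was higher after cantharidin, and with the median over a gene's probes the cantharidin median of the group was -1.43. FASN, fatty acid synthase, read 30040, 4652 and 13338 in control, cantharidin and okadaic acid. It was 5.87-fold lower after cantharidin (-2.55) and 2.69-fold lower after okadaic acid (-1.43). SCD, which puts the first double bond into saturated fatty acids, read 7808, 472 and 702. Its treated values were close to each other and far from control, 15.02-fold and 13.3-fold lower (-3.91 and -3.73), and the okadaic acid difference was the lowest of the 33 genes.

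ACACA, acetyl-CoA carboxylase, read 3388, 412 and 1134 at its brighter probe, 7.48-fold lower after cantharidin (-2.90) and 3.56-fold lower after okadaic acid (-1.83). A dimmer ACACA probe read 383, 567 and 299, which is higher after cantharidin (0.70) and lower after okadaic acid (-0.61), so its probes agreed in direction for okadaic acid alone. FADS1 and FADS2 are desaturases of polyunsaturated fatty acids. FADS2 read 7596, 2035 and 2626 and was 3.39-fold and 3.45-fold lower (-1.76 and -1.79). FADS1 read 8296, 4390.3 and 8380.1, with cantharidin 1.72-fold lower (-0.78) and okadaic acid at -0.24. ELOVL6, which elongates palmitate, read 371, 206 and 591. The cantharidin array was low, by 1.63-fold (-0.71), and the okadaic acid array was at 0.41.

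Of the 6 genes of the SREBP system and sterol transport, taken at their brightest probes, 4 were lower and 1 higher after cantharidin, and 3 were lower and 1 higher after okadaic acid. SREBF1, which encodes the SREBP-1 factors of fatty acid synthesis, read 25632, 2764 and 3408 at its brighter probe. Both treated values were low, by 8.43-fold after cantharidin (-3.07) and 8.98-fold after okadaic acid (-3.17). Its dimmer probe read 973, 964 and 1451 and gave 0.13 and 0.32, past the threshold in neither, so the difference rests on 1 of 2 SREBF1 probes. SREBF2, which encodes the SREBP-2 factor of cholesterol synthesis and holds the sterol element shown above, read 1449, 1583 and 775. Okadaic acid alone was low, 2.23-fold under control (-1.16), and cantharidin was at 0.27. SCAP, the escort of the SREBP factors, read 3156, 1061 and 1751 and was 2.70-fold and 2.15-fold lower (-1.43 and -1.11).

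INSIG1, an anchor that retains SCAP, read 12882, 3325 and 16987. The cantharidin array alone was low, 3.52-fold under control (-1.82), and okadaic acid was at 0.14. INSIG2, the related anchor, read 1012, 535 and 1214 and was 1.72-fold lower after cantharidin (-0.78), with okadaic acid at 0.01. Its dimmer probe read 211 in control, 24.7 in cantharidin, where it was not well above background, and 120 in okadaic acid. That probe was at least 7.78-fold lower after cantharidin and had a log2 difference of -1.07 after okadaic acid, so the INSIG2 probes were both low under cantharidin and apart under okadaic acid. STARD4, a soluble carrier of sterols between membranes, went against most of the list with readings of 216, 1269 and 877. Control was the low array, and STARD4 was 6.47-fold higher after cantharidin (2.69) and 3.40-fold higher after okadaic acid (1.77), the highest difference of the 33 genes on each treated array.

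Set directly against the cantharidin array, the okadaic acid array was at least 1.5-fold higher for 15 of the 33 genes, lower for 5 and neither for 13, with a median log2 difference of 0.50. Over all 16200 genes compared, 29.5% were higher and 22.3% lower, with a median of 0.13. Without scaling between arrays the split was 22 higher and 2 lower among the members and 7629 higher and 2254 lower among all genes, and scaling to the median gave 3913 and 4409 among all genes, beside 4781 and 3616. The highest differences were those of TM7SF2 (4.14-fold, 2.05), ACAT2 (4.02-fold, 2.01) and INSIG1 (3.89-fold, 1.96). For ACAT2 and INSIG1 the okadaic acid value lay near control, and the cantharidin value was the one that stood apart. SQLE (3.04-fold), HMGCS1 (2.92-fold), EBP (2.86-fold), SC5D (2.52-fold) and IDI1 (2.51-fold) came next, and then the fatty acid enzymes FASN and ELOVL6 (2.18-fold each), MSMO1 (2.16-fold), NSDHL (2.15-fold) and ACACA at its brighter probe (2.10-fold). With normexp the differences of TM7SF2 and SC5D were 1.40 and 0.46, the latter under 1.5-fold.

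Among genes low under both agents by their brightest probe, MSMO1, SC5D, ACACA and FASN were thus higher with okadaic acid than with cantharidin. SC5D fell under 1.5-fold with normexp. In contrast, SCD (0.18), FADS2 (-0.03), SREBF1 (-0.09) and FDFT1 (0.20) differed little on the log2 scale. The dimmer ACACA probe went the other way from the brighter one in this comparison. ACSS2 and INSIG2 were 1.88- and 1.73-fold higher with okadaic acid. Lower with okadaic acid were SREBF2 (2.68-fold, -1.42), MVD (2.03-fold, -1.02), STARD4 (1.90-fold, -0.93), HSD17B7 (1.77-fold, -0.82) and LSS at its brighter probe (1.55-fold, -0.63). By role, 6 of 11 squalene and sterol genes were higher and 2 lower, 3 of 7 in the mevalonate arm were higher and 1 lower, and 3 of 6 fatty acid genes were higher and none lower. In the SREBP system and sterol transport 2 of 6 were higher and 2 lower (median 0.12), and 1 of 3 acetyl-CoA genes was higher and none lower. These groups hold 3 to 11 genes each, and over all genes 29.5% were higher and 22.3% lower in this comparison. The agents were given at 1 dose and 1 time each, so no difference between them can be set against dose.

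**Figure D4:**
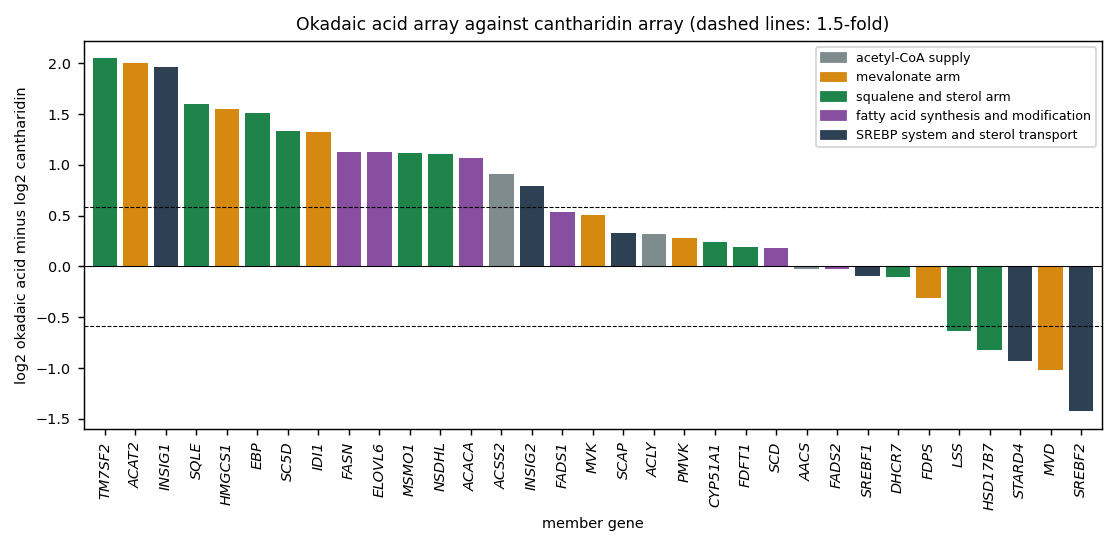
Log2 difference of the okadaic acid array from the cantharidin array for each of the 33 genes, ordered by size and coloured by role, with dashed lines at 1.5-fold. Bars of 15 genes pass the upper line, from TM7SF2 at 2.05 down to INSIG2 at 0.79, and bars of 5 genes pass the lower one, with SREBF2 at -1.42 the lowest.

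A wider list of 67 related lipid genes shares no gene with the 33. Of 66 compared after cantharidin, 26 were lower and 17 higher (median -0.19), and of 65 compared after okadaic acid, 29 were lower and 11 higher (median -0.39). As shares these were 39.4% lower and 25.8% higher after cantharidin, near the 34.1% and 27.5% of all genes, and 44.6% lower and 16.9% higher after okadaic acid, against 28.8% and 28.1%. The lists below are small, with 9 to 14 genes compared in each, and are given as counts against the same shares of all genes. Genes of fatty acid oxidation were mostly within the threshold after cantharidin, with 1 of 9 lower and 1 higher, and 4 of 9 were lower and 1 higher after okadaic acid. Among 10 genes of acyl-CoA and glycerolipid synthesis, 6 were lower and 2 higher after cantharidin, and 3 were lower and 3 higher after okadaic acid. Sterol and isoprenoid branch genes were lower in 5 and higher in 3 of 11 after cantharidin, and lower in 7 and higher in 1 after okadaic acid. For fatty acid elongation and supply the counts were 6 lower and 5 higher of 14, and 6 lower and 3 higher of 13. SREBP and LXR regulators had 5 lower and 4 higher of 11, and 6 lower and 3 higher. Genes of cholesterol uptake, storage and efflux had 3 lower and 2 higher of 11, and 3 lower and none higher.

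For each agent, related genes among those with the highest and lowest differences from control are named. TMEM97, a sterol-regulated membrane protein, read 1828, 95.5 and 251 and was 17.4-fold lower after cantharidin. ACSL3, an acyl-CoA synthetase, read 553, 41.3 and 109 and was 12.2-fold lower. On the high side after cantharidin stood the fatty acid elongase ELOVL7, at 187, 1325 and 1196 (7.81-fold), and the phosphatidate phosphatase LPIN1, at 643, 2976 and 1693 (5.09-fold). ELOVL7 was also 5.36-fold higher after okadaic acid. MYLIP, a ubiquitin ligase for lipoprotein receptors, read 2928, 9133 and 19910.4, 5.70-fold higher after okadaic acid. GGPS1, which makes geranylgeranyl diphosphate, read 63.5, 110.1 and 269.8, 3.56-fold higher. Lowest after okadaic acid were the elongase ELOVL2, at 1252, 142 and 74.1 (20.2-fold lower), the desaturase SCD5, at 1861, 164 and 165 (13.4-fold lower), and COQ2 of coenzyme Q synthesis, at 804, 129 and 94.2 (10.2-fold lower). The okadaic acid signals of ELOVL2 and COQ2 were near 58.0, the lowest there of any probe well above background. That lowest signal was 21.9 in cantharidin, beside 41.3 for ACSL3, and 35.0 in control, beside 63.5 for GGPS1. The size of these 4 folds is therefore uncertain. LPIN1 and SCD5 had further probes. The second probe of LPIN1 gave 0.95 after cantharidin, on the same side as the brighter one, and 2 dimmer probes of SCD5 gave -1.44 and -0.42 after okadaic acid. The remaining SCD5 probe was not well above background on either treated array and gives no fold.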

How the data were processed

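Total RNA from PANC-1 cells was hybridised to 3 Agilent one-colour arrays, which lay on 1 slide, so position went with the group and no batch could be tested. Groups came from the sample labels. The scanner output that the authors deposited holds intensity values per spot from Feature Extraction 11.0.1.1. The headers show a correction for background within an array, no scaling between arrays and probe annotation on hg19. A second deposited table gives log2 values, already normalized, of 30923 probes, and its normalization is not given in the sources used here. Its columns matched the log2 intensity of their own array with r of 0.998 or more and that of any other array with r of 0.937 or less, and all column medians were 7.74. It served as an alternative only.

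Log2 processed intensity was averaged over spots without an outlier flag (34041 probes), and each array's 75th percentile was subtracted. Accessions without their version matched RefSeq transcripts of GRCh38.p14 for 25705 probes and 19699 genes. Each gene took the values of its brightest probe by mean log2 over the 3 arrays. It was compared if either array of a pair measured that probe well above background, and counted as higher or lower past 1.5-fold. Depth has no meaning for arrays, and their number, 1 per group, limits the precision. Below background, the fold is a bound, set by the higher of the probe's own signal and the lowest signal that the array measured well above background. No p-value was computed. The members and gene lists were chosen with earlier results of these data known. All members are named, and of the related genes the 3 highest and 3 lowest per agent among those well above background on both arrays and past 1.5-fold. Of these, 2 genes are not reported here. Alternatives were normexp background correction (limma 3.58.1 in R 4.3.3, offset 50, on median spot signals), other scalings, other filters, the deposited table, a 2-fold threshold and the median over probes. Leaving out genes whose probes differed in direction was added after seeing the data. The steps were tested on data simulated from the control array, with few probes changed. That test cannot show how well the scaling works on these arrays, where many more genes passed the threshold. Other steps used Python 3.11.15, numpy 2.4.6 and pandas 2.3.3.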

Additional observations from a re-analysis of the deposited data

How the results depend on the processing

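Of the calls at 1.5-fold, 21 of 23 lower and 2 of 3 higher genes after cantharidin, and 11 of 15 lower and 5 of 5 higher genes after okadaic acid, held in all 9 alternatives with that threshold. The exceptions were LSS, HSD17B7 and MVD for cantharidin and AACS, PMVK, LSS and SC5D for okadaic acid. Of the 9 alternatives, the 2 other filters on dim probes could change no call. The brightest probe of all 33 genes was well above background on every array. The median over probes could change only the 6 genes with more than 1 probe. In the direct comparison 13 of 15 higher (not SC5D and ACACA) and 2 of 5 lower genes (not LSS, HSD17B7 and STARD4) held. Genes that were neither held in 5 of 7, 8 of 13 and 6 of 13 for cantharidin, okadaic acid and the direct comparison. Without scaling IDI1 (0.62) and ELOVL6 (0.67) passed 1.5-fold after okadaic acid, and with scaling to the median DHCR7 (-0.65), EBP (-0.67) and TM7SF2 (-0.59) did. With a 2-fold threshold 1 gene was higher and 16 were lower after cantharidin (all genes, 20.1% and 22.3%), 3 were higher and 12 lower after okadaic acid (18.8% and 19.0%), and 13 were higher and 2 lower with okadaic acid than cantharidin (16.5% and 13.6%). Without scaling the median difference was -1.10 for cantharidin, -0.27 for okadaic acid and 0.90 directly, where 2 genes were lower, and the median over all genes moved to -0.30, 0.26 and 0.52. MVD then fell to 0.51 after cantharidin. The okadaic acid median was -0.42 with normexp and -0.65 with scaling to the median. Cantharidin differences of single genes moved with normexp as well. Those of MSMO1 (-3.48), ACSS2 (-0.67) and STARD4 (2.20) were smaller in size, and that of INSIG1 (-1.89) was larger. The direct median was 0.35 with scaling to the median and 0.33 with the median over probes. That last choice turned LSS after cantharidin to 0.023 and ACACA in the direct comparison to -0.12, which follows from their disagreeing probes. It also moved the cantharidin differences of ACACA to -1.10, SREBF1 to -1.47 and INSIG2 to -1.87, and the okadaic acid differences of LSS to -0.54, ACACA to -1.22 and SREBF1 to -1.42. Without genes whose probes differed in direction, an alternative chosen after seeing the data, 20 of 30 were lower after cantharidin and 13 of 30 after okadaic acid. The genes left out were LSS, ACACA and SREBF1 for cantharidin, and LSS, SREBF1 and INSIG2 for okadaic acid. The 27 genes with 1 probe could not be left out. The share over all genes was not counted for this choice, so these counts have no background beside them. No paired analysis was possible because each group has 1 array, and for the same reason no replicate could be left out.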
